A study of Mus musculus with 6 samples.

Results

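Transcripts of the Notch pathway and of the pre-T cell receptor (pre-TCR) were followed in double-negative (DN) thymocytes with and without extra NFATc1. The set was given by name and holds 10 of the 41457 genes in the deposited tables. It comprises the receptors *Notch1*, *Notch2* and *Notch3*, their nuclear partners *Rbpj* and *Maml1*, the target genes *Hes1*, *Dtx1*, *Nrarp* and *Heyl*, and the pre-TCR gene *Ptcra*. Messenger RNA was sequenced from 3 Nc1Bio and 3 BirA libraries. Nc1Bio mice overexpressed NFATc1 from a bacterial artificial chromosome (BAC) that carries the complete mouse *Nfatc1* locus. The BAC copy was tagged for biotin at its C-terminal end, and these mice also carried the biotin ligase BirA. BirA mice, labelled WT, had normal NFATc1 and carried the ligase as well. The mice were 4 to 6 weeks of age, matched for age and sex, on a C57/B6 background. DN cells were what remained after magnetic removal of thymocytes with CD4 or CD8, so neither DN stages nor other CD4- and CD8-negative cells were separated. No label ties a library to a mouse of its own, so the spread behind each p-value may be technical.

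Notch receptors are cut at the cell surface and again within the membrane once a ligand on a neighbouring cell has bound. The freed intracellular domain enters the nucleus, where it joins the DNA-binding protein RBPJ and a coactivator of the Mastermind family and turns on target genes. In the thymus, Notch1 signals commit progenitors to the T lineage. DN thymocytes then make pre-Tα, the *Ptcra* product, which pairs with a rearranged TCRβ chain in the pre-TCR and carries cells through β-selection towards the αβ lineage.

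The libraries held 11845952 to 14013497 unique gene reads in Nc1Bio and 13767665 to 15393763 in BirA. *Nfatc1*, the gene on the BAC, was 4.56-fold higher in Nc1Bio and the single gene called by the edgeR quasi-likelihood test (adjusted p = 0.0141), a call that was lost without any 1 of the Nc1Bio libraries or without BirA replicate 2. On unique reads, summed markers of the DN2 to DN3 stages reached 3398 to 4362 CPM (read counts relative to the size of the library) in Nc1Bio and 2908 to 3416 CPM in BirA. *Dntt* made most of these sums, at 2296 to 2932 CPM in Nc1Bio and 1933 to 2208 CPM in BirA. *Rag1* added little, with 2.42 to 9.33 CPM of unique reads in Nc1Bio and 2.57 to 4.91 CPM in BirA. Its total reads came to 413 to 992 CPM in Nc1Bio and 362 to 499 CPM in BirA. The sort removes cells with CD4 or CD8. *Cd4* stood at 0.834 to 5.40 CPM in Nc1Bio and 2.57 to 6.85 CPM in BirA. *Cd8a* had 4.25 to 12.1 CPM in Nc1Bio and 5.21 to 14.0 CPM in BirA. *Cd8b1* had 16.0 to 24.1 CPM in Nc1Bio and 14.5 to 33.7 CPM in BirA. The 6 listed markers of CD4 and CD8 double-positive cells summed to 289 to 324 CPM in Nc1Bio and 276 to 318 CPM in BirA. *Arpp21* made most of these sums, at 208 to 269 CPM in Nc1Bio and 184 to 234 CPM in BirA. Genes of other cells were present too. Summed γδ T cell markers reached 197 to 457 CPM in Nc1Bio and 524 to 982 CPM in BirA, B cell markers 53.0 to 84.4 CPM in Nc1Bio and 122 to 340 CPM in BirA, and erythroid genes 17643 to 97497 CPM in Nc1Bio and 20062 to 66106 CPM in BirA. All 6 γδ and all 6 B cell markers had negative log2 fold changes, and all 6 erythroid genes positive ones. At an unadjusted edgeR p under 0.05, 6 γδ and 5 B cell markers were lower, beside 7.66% of all genes. Of the erythroid genes 0 were higher at that level, beside 4.31% of all genes.

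The deposited tables give unique and total reads for each gene, and the sources used here do not define the difference. It mattered for this set. Unique reads made up 100% of the total in *Hes1* and *Heyl*, at least 99.7% in *Dtx1*, 95.1% to 97.0% in *Notch2*, 80.5% to 86.1% in *Notch1* and 57.3% to 67.0% in *Notch3*. They fell short in *Rbpj* with 25.7% to 32.2%, *Ptcra* with 13.3% to 16.8%, *Maml1* with 4.16% to 9.16% and *Nrarp* with 0% to 3.47%. The last 4 all share their span with another annotated gene on the opposite strand: *Ptcra* lies inside the lincRNA *Gm26904*, *Nrarp* over the antisense *Gm38287*, *Maml1* over the antisense *Gm26542*, and *Rbpj* over *Gm10441* and *Gm40304*. *Notch3* overlaps the opposite-strand lincRNA *Gm17276*, and *Notch1* the opposite-strand transcripts *0610009E02Rik* and *Gm13568*. On the same strand, *Notch2* overlaps *Gm42819* and *Gm42820*, and *Notch1* overlaps *Mir6996*, each with 0 reads in every library. Whether strand was used in counting is not stated, and without it reads of a gene and its partner cannot be told apart where they overlap. As counted in the tables, the partners other than *Gm26904* had few total reads beside the genes of the set. Total reads per library were 0 to 6 for *Gm38287*, 0 to 1 for *Gm10441*, 0 to 3 for *Gm40304*, 0 to 25 for *Gm26542*, 0 to 5 for *Gm17276*, 7 to 47 for *0610009E02Rik* and 0 to 7 for *Gm13568*, and those of *Gm26904* are given with *Ptcra*. Both counts are therefore given, as CPM on library sizes scaled by TMM (trimmed mean of M values).

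**Figure D1:**
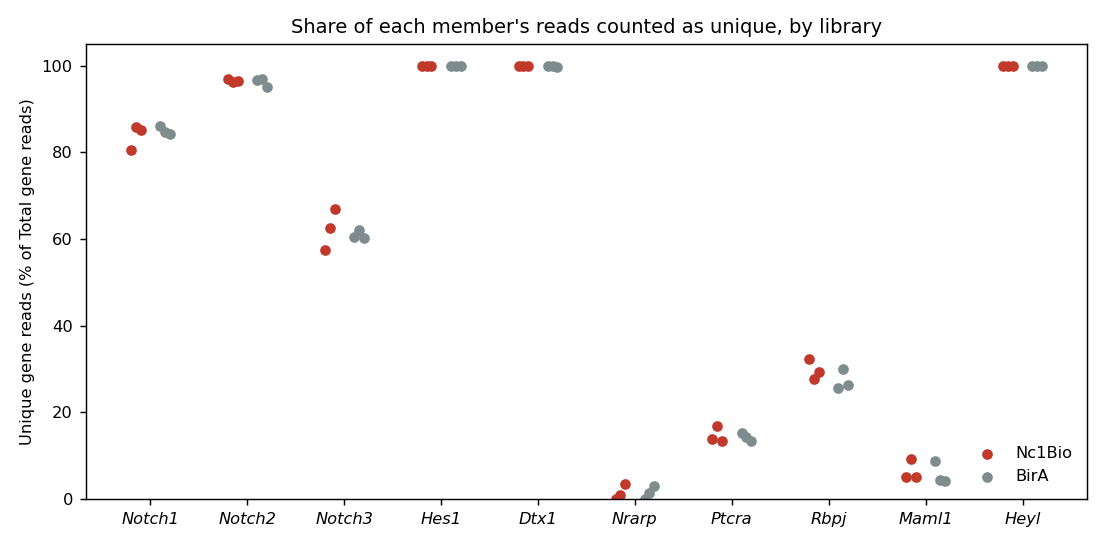
Unique gene reads as a percentage of total gene reads (vertical axis) for each of the 10 genes (horizontal axis), with 1 point for each library, Nc1Bio in red and BirA in grey. The groups lie together for every gene, while the share runs from 0% in *Nrarp* to 100% in *Hes1* and *Heyl*.

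Most of the set had more transcript in Nc1Bio than in BirA, but none of it passed the edgeR test. Of the 9 genes with enough unique reads, 7 were higher and 2 lower in Nc1Bio. Their median log2 fold change was 0.28, beside -0.0026 over all 12224 genes tested. On total reads 8 of 10 were higher and 2 lower, with a median of 0.38, beside -0.0027 over all 13095 genes. edgeR called 0 of the set at an adjusted p under 0.05 in either column, where 0.00818% of all genes tested on unique reads and 0.00764% on total reads were called. At an unadjusted p under 0.05 it found *Ptcra* and *Notch3* higher in both columns, beside 4.31% of all genes on unique and 4.15% on total reads, and no gene of the set lower, beside 7.66% of all genes on unique reads. *Ptcra* and *Notch3* in both columns, and *Notch1* on unique reads, had all Nc1Bio libraries above all BirA libraries. That order held for 8.45% of all genes on unique and 8.42% on total reads. No gene of the set had all Nc1Bio libraries below all BirA libraries, which held for 9.98% of all genes on unique and also 9.98% on total reads. DESeq2, the tool named in the study's methods, called *Ptcra* and *Notch3* higher on unique reads and *Ptcra* alone on total reads, beside 0.32% and 0.34% of all genes called higher. It called no gene of the set lower, where 2.16% of all genes on unique and 2.25% on total reads were called lower. limma-voom called 0 of the set. In bulk RNA a lower transcript level cannot be told apart from fewer cells of the type that makes it, and the same holds for a higher one.

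**Figure D2:**
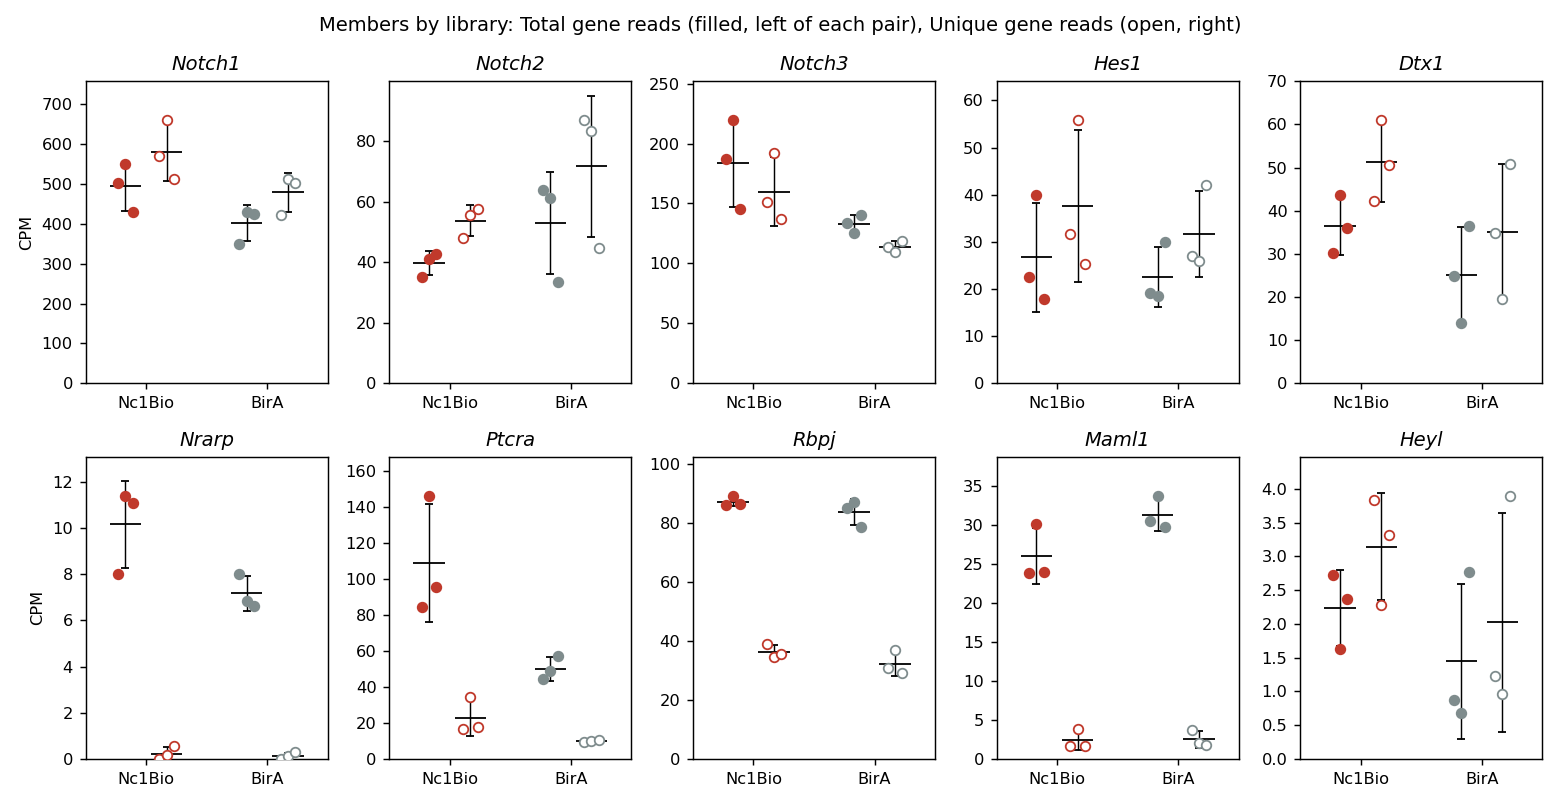
CPM of the 10 genes (vertical axes, each from 0) in the Nc1Bio (red, left) and BirA (grey, right) libraries, with total gene reads filled, unique gene reads open, and bars for the mean ± SD of 3 libraries. The Nc1Bio points lie above all BirA points for *Ptcra* and *Notch3* in both counts and for *Notch1* on unique reads. That order held for 8.45% of all genes on unique and 8.42% on total reads.

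*Notch1* (ENSMUSG00000026923, chromosome 2, 26457903 to 26516663, minus strand, GRCm38 as in the tables) encodes the receptor that commits progenitors to the T lineage. It had 569, 659 and 514 CPM of unique reads in Nc1Bio replicates 1, 2 and 3, against 422, 512 and 502 CPM in BirA replicates 1, 2 and 3. Every Nc1Bio library lay above every BirA library, as in 8.45% of all genes, but the lowest Nc1Bio and the highest BirA value nearly met. The mean was 581 ± 73.6 CPM over the Nc1Bio libraries, against 479 ± 49.2 CPM over the BirA libraries (SD, n = 3 each), with a log2 fold change of 0.28 (SE 0.13) and an edgeR adjusted p of 0.438. On total reads Nc1Bio had 503, 549 and 429 CPM and BirA 349, 431 and 424 CPM, and the groups overlapped. The log2 fold change was 0.30 (SE 0.13, edgeR adjusted p = 0.434).

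*Notch3* (ENSMUSG00000038146, chromosome 17, 32120820 to 32166880, minus strand) encodes a second receptor of DN thymocytes and is itself a known target of Notch1. Its unique reads came to 151, 192 and 137 CPM in the 3 Nc1Bio libraries, against 114, 109 and 119 CPM in BirA. Here the groups did not overlap, and the BirA libraries lay close together while Nc1Bio replicate 2 stood well above the other two. *Notch3* averaged 160 ± 28.9 CPM over the Nc1Bio libraries, against 114 ± 4.75 CPM over the BirA libraries (SD, n = 3 each), a log2 fold change of 0.49 (SE 0.13), with an unadjusted p of 0.00666 and an adjusted p of 0.263 in edgeR. Total reads gave 187, 219 and 145 CPM in Nc1Bio and 134, 125 and 140 CPM in BirA, again without overlap, and the log2 fold change was 0.46 (SE 0.15, edgeR adjusted p = 0.338). The same order of groups was found in 8.45% of all genes on unique and 8.42% on total reads. DESeq2 gave *Notch3* an adjusted p of 0.0343 on unique and 0.0602 on total reads. The DESeq2 call on unique reads was lost without Nc1Bio replicate 1 (adjusted p = 0.0814), Nc1Bio replicate 2 (0.253), BirA replicate 1 (0.139) or BirA replicate 2 (0.210). Without Nc1Bio replicate 2 the edgeR log2 fold change was 0.34 on unique reads.

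*Notch2* (ENSMUSG00000027878, chromosome 3, 98013527 to 98150361, plus strand), a receptor better known for its role in B and myeloid cells, ran the other way. It had 48.1, 55.6 and 57.8 CPM of unique reads in Nc1Bio, against 86.9, 83.5 and 44.9 CPM in BirA. BirA replicates 1 and 2 were high and BirA replicate 3 was below every Nc1Bio library, so the groups overlapped. The log2 fold change was -0.42 (SE 0.23, edgeR adjusted p = 0.520). Without BirA replicate 3 it was -0.66 in edgeR (adjusted p = 0.131), and DESeq2 then called *Notch2* lower, at -0.67 with an adjusted p of 0.000886. BirA replicate 3 also had the lowest summed level of macrophage and monocyte markers. That sum was 274, 298 and 661 CPM in the Nc1Bio libraries and 657, 1104 and 135 CPM in BirA, with all 6 markers above 0 in each library and all 6 at negative log2 fold changes. *Lyz2* made most of the sum, at 205, 261 and 593 CPM in Nc1Bio and 486, 982 and 83.5 CPM in BirA. *Lyz2* and *Cd68* were lowest in BirA replicate 3. *Csf1r* and *Adgre1* were lowest in Nc1Bio replicate 2, and *C1qa* and *C1qb* in Nc1Bio replicate 3. The part of macrophages and monocytes in the *Notch2* level was not tested.

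Exon reads divided by exon length allow the receptors to be compared with each other. On unique exon reads *Notch1* was the most abundant in every library, with 41.0 ± 5.17 exon CPM per kb in Nc1Bio (SD, n = 3), against 33.8 ± 3.29 in BirA (SD, n = 3). *Notch3* followed with 20.1 ± 3.56 exon CPM per kb in Nc1Bio, against 14.3 ± 0.559 in BirA, and *Notch2* with 4.99 ± 0.479 in Nc1Bio, against 6.67 ± 2.14 in BirA (SD, n = 3 for each mean). The order *Notch1*, *Notch3*, *Notch2* held in all 6 libraries. *Notch3* took 29.7%, 31.8% and 29.3% of the 3 receptors' reads per kb in Nc1Bio, against 27.3%, 23.8% and 27.3% in BirA. This share does not depend on the scaling of libraries, and all Nc1Bio values exceeded all BirA values. The means of 30.3% ± 1.31 in Nc1Bio (SD, n = 3) and 26.2% ± 2.01 in BirA (SD, n = 3) differed by 4.11 percentage points, with a two-sided exact permutation p of 0.1, the smallest that 3 against 3 libraries can give. On total exon reads the difference was 3.73 points (exact permutation p = 0.2). Set against *Notch1* alone, *Notch3* took 32.8% ± 1.17 in Nc1Bio (SD, n = 3) and 29.8% ± 2.42 in BirA (SD, n = 3), with overlapping groups (exact permutation p = 0.3). *Notch2* took 7.65% ± 1.24 of the 3 receptors in Nc1Bio and 12.2% ± 3.99 in BirA, with SD over n = 3 and an exact permutation p of 0.2. *Notch4*, the remaining receptor gene, had few reads, at 0.531 to 0.916 CPM in Nc1Bio and 0.128 to 1.18 CPM in BirA.

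**Figure D3:**
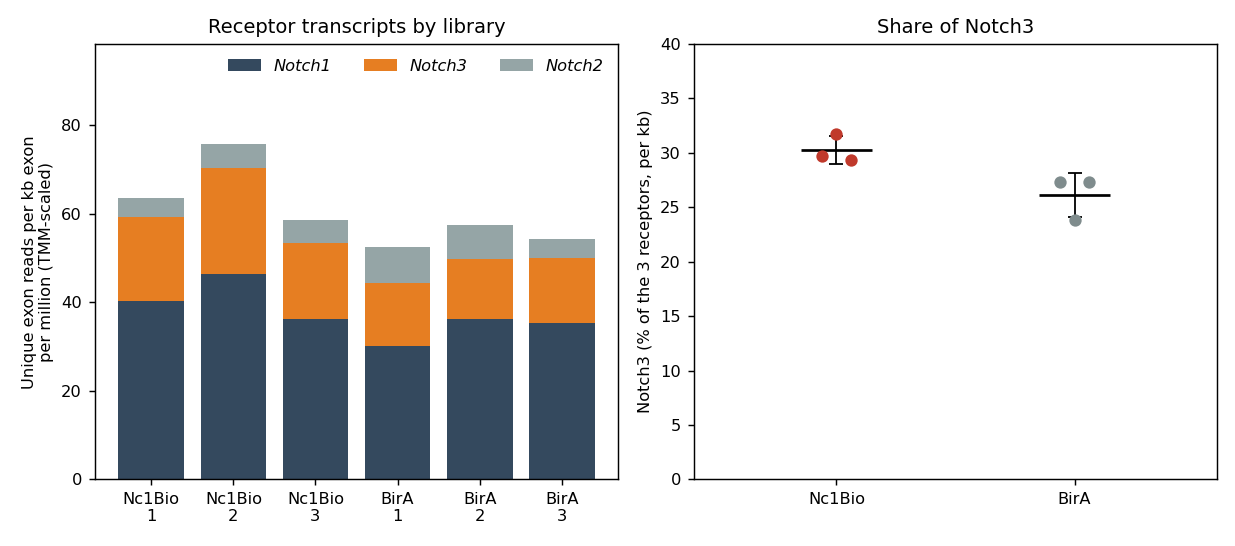
Left, stacked unique exon CPM per kb of exon (vertical axis, on TMM-scaled library sizes) of *Notch1*, *Notch3* and *Notch2* in each library. Right, the percentage that *Notch3* takes of the 3 receptors, with 1 point for each library and bars for mean ± SD. *Notch3* holds 29.3% to 31.8% in Nc1Bio and 23.8% to 27.3% in BirA.

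*Rbpj* (ENSMUSG00000039191, chromosome 5, 53466152 to 53657362, plus strand), the DNA-binding partner of the receptors, was the steadiest gene of the set. Its total reads came to 86.2, 89.1 and 86.4 CPM in Nc1Bio, against 85.2, 87.3 and 78.8 CPM in BirA. The groups overlapped and the log2 fold change was 0.059 (SE 0.082, edgeR adjusted p = 0.810). On unique reads, which leave out most of its reads, it was 0.17 (SE 0.13, adjusted p = 0.646 in edgeR). *Maml1* (ENSMUSG00000050567, chromosome 11, 50255634 to 50292311, minus strand), a Mastermind coactivator, had 23.9, 30.2 and 24.1 CPM of total reads in Nc1Bio and 30.5, 33.7 and 29.7 CPM in BirA. Nc1Bio replicate 2 reached into the BirA range while the other Nc1Bio libraries lay below it. The log2 fold change was -0.27 (SE 0.14, edgeR adjusted p = 0.490). Its 20 to 51 unique reads in Nc1Bio and 25 to 52 in BirA gave -0.057 (SE 0.53), a value that turned to 0.15 without Nc1Bio replicate 1 or 3 and to 0.35 without BirA replicate 1.

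*Hes1* (ENSMUSG00000022528, chromosome 16, 30064384 to 30067796, plus strand), a transcriptional repressor of the bHLH family, had 31.6, 55.8 and 25.2 CPM of unique reads in Nc1Bio, against 26.9, 25.9 and 42.1 CPM in BirA. Each group had a single high library, Nc1Bio replicate 2 and BirA replicate 3, and the groups overlapped. The log2 fold change was 0.25 (SE 0.32, edgeR adjusted p = 0.791), and without Nc1Bio replicate 2 it turned to -0.15.

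*Dtx1* (ENSMUSG00000029603, chromosome 5, 120680202 to 120711927, minus strand), which encodes the ubiquitin ligase Deltex1, had 42.3, 60.9 and 50.6 CPM of unique reads in Nc1Bio, against 34.7, 19.5 and 50.9 CPM in BirA. BirA replicate 3 lay within the Nc1Bio range and the other BirA libraries below it. The log2 fold change was 0.55 (SE 0.32, edgeR adjusted p = 0.527). It was 0.93 without BirA replicate 3 (edgeR adjusted p = 0.207), where DESeq2 called the gene higher (0.92, adjusted p = 0.0297), and 0.26 without BirA replicate 2.

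*Nrarp* (ENSMUSG00000078202, chromosome 2, 25180758 to 25183339, plus strand), an ankyrin-repeat protein that feeds back on the Notch complex, could be followed on total reads alone. These came to 7.99, 11.4 and 11.1 CPM in Nc1Bio and 8.02, 6.85 and 6.63 CPM in BirA. Nc1Bio replicates 2 and 3 lay above all BirA libraries, and Nc1Bio replicate 1 was level with BirA replicate 1. The log2 fold change was 0.50 (SE 0.22, edgeR adjusted p = 0.439). With 0 to 7 unique reads in Nc1Bio and 0 to 4 in BirA, the gene was not tested on unique reads. *Heyl* (ENSMUSG00000032744, chromosome 4, 123233556 to 123249875, plus strand), another bHLH repressor, was scarce. It had 46, 30 and 43 reads in Nc1Bio, against 17, 15 and 56 reads in BirA, so that BirA replicate 3 was the highest of the 6 libraries on CPM. Its log2 fold change of 0.63 (SE 0.60) had an edgeR adjusted p of 0.709 and was 1.52 without BirA replicate 3 and 0.29 without BirA replicate 2.

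**Figure D4:**
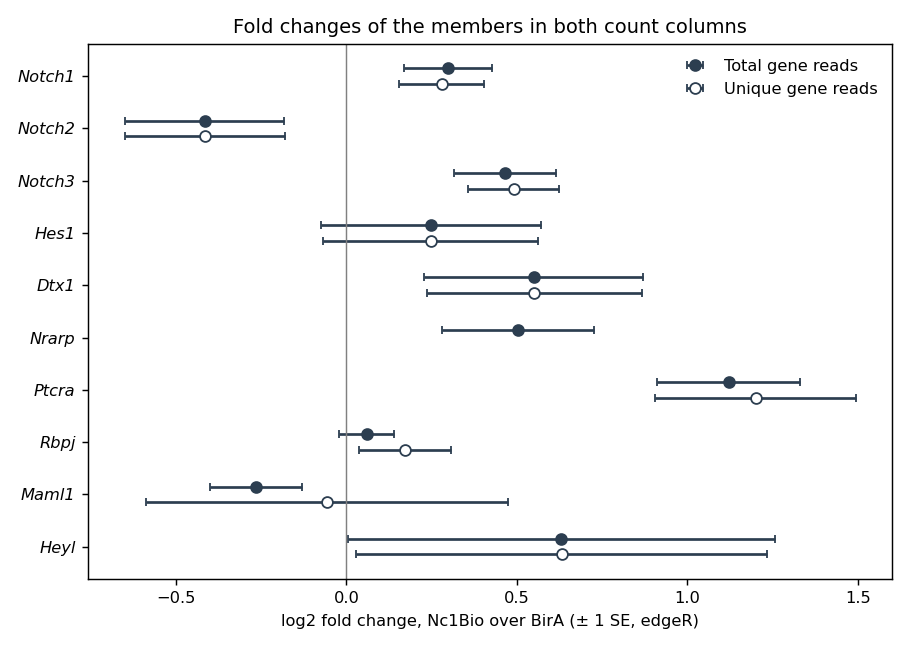
Log2 fold change of Nc1Bio over BirA ± 1 SE from edgeR (horizontal axis) for the 10 genes (vertical axis), with total gene reads filled and unique gene reads open. *Ptcra* lies farthest right at 1.12 on total and 1.20 on unique reads, *Notch2* and *Maml1* lie left of 0, and *Nrarp* has a value on total reads alone.

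*Ptcra* (ENSMUSG00000036858, chromosome 17, 46755663 to 46763712, minus strand) had the largest fold change of the set in both columns. Its total reads came to 84.6, 146 and 95.6 CPM in Nc1Bio, against 44.3, 48.7 and 57.0 CPM in BirA. All Nc1Bio libraries lay above all BirA libraries, as in 8.42% of all genes, with Nc1Bio replicate 2 highest. *Ptcra* averaged 109 ± 32.7 CPM over the Nc1Bio libraries, against 50.0 ± 6.48 CPM over the BirA libraries (SD, n = 3 each), which is 2.17-fold, with a log2 fold change of 1.12 (SE 0.21), an unadjusted p of 0.000825 and an adjusted p of 0.140 in edgeR. Unique reads gave 16.5, 34.3 and 17.9 CPM in Nc1Bio and 9.46, 9.73 and 10.7 CPM in BirA, and a log2 fold change of 1.20 with SE 0.29 (edgeR adjusted p = 0.222). The groups were apart here as well, in the order found in 8.45% of all genes on unique reads.

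DESeq2 called *Ptcra* higher, with adjusted p-values of 2.02e-06 on total and 0.00513 on unique reads. On unique reads that call was lost without Nc1Bio replicate 2 (adjusted p = 0.146), BirA replicate 1 (0.0718) or BirA replicate 2 (0.0841). Without Nc1Bio replicate 2 the edgeR log2 fold change was 0.79 on unique and 0.85 on total reads. Nc1Bio replicate 2 was the highest library for 7 of the 10 genes on total reads, while 13.9% of all genes tested had their highest value there. It also had the lowest summed erythroid level of the 6 libraries, 17643 CPM. BirA replicate 3 came next at 20062 CPM, with *Ptcra* at 57.0 CPM of total reads against 146 CPM in Nc1Bio replicate 2. The part of erythroid cells in the *Ptcra* level was not tested.

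The reads of *Ptcra* were looked at in more detail because the gene sits inside *Gm26904* (chromosome 17, 46471501 to 46825221, plus strand). All of its unique reads, 198, 452 and 232 in Nc1Bio and 131, 152 and 154 in BirA, spanned a junction between exons. Introns held 0.344% to 0.420% of its total reads in Nc1Bio and 0% to 0.469% in BirA. *Gm26904* itself had 340, 362 and 321 total reads in Nc1Bio and 276, 350 and 391 in BirA, with overlapping groups. On total reads these were fewer than those of *Ptcra* in every library. Its unique reads were 340, 362 and 321 in Nc1Bio and 276, 350 and 390 in BirA. On unique reads *Gm26904* exceeded *Ptcra* in every library but Nc1Bio replicate 2. Per kb of exon, total reads of *Ptcra* stood at 85.9 ± 25.8 CPM per kb in Nc1Bio, against 39.7 ± 4.93 in BirA, and those of *Notch1* at 34.9 ± 4.26 in Nc1Bio, against 28.4 ± 3.05 in BirA (SD, n = 3 for each mean).

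Promoters of *Ptcra* and *Notch3* are shown because these were the genes of the set that stood apart between the groups in both counts. The windows are from RefSeq (GRCm38.p6), 250 bases before to 50 after the transcript start, at chr17:46763663-46763962 and chr17:32166841-32167140, both on the minus strand and written 5′ to 3′. Capitals mark TGGGAA, the core that RBPJ binds.
Ptcra: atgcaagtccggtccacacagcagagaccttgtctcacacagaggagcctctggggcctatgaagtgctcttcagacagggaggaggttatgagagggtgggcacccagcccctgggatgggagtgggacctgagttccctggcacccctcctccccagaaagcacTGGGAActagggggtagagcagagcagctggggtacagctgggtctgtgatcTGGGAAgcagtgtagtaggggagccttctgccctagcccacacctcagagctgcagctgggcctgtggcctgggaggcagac
Notch3: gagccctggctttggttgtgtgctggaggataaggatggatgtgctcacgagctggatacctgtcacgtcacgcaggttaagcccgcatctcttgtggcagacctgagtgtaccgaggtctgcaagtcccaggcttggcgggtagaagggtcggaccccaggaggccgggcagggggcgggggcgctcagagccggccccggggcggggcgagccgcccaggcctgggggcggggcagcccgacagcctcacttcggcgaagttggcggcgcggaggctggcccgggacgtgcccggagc
The *Ptcra* window held 2 matches to TGGGAA, at 84 and 32 bases before the start, and none to GGAAA, the core of NFAT sites. It also held 3 matches to CANNTG, the E-box bound by the E proteins E2A and HEB, at 60 and 49 bases before and 21 after the start. The *Notch3* window held none of the 3 motifs, and neither did those of *Notch1* and *Dtx1*. Both strands were searched, and a TGGGAA followed by A also contains GGAAA. Of all 32851 windows in the RefSeq table, 25.6% held at least 1 TGGGAA and 3.79% at least 2, 61.3% held GGAAA, and 72.3% held CANNTG, 17.6% at least 3 times. In all, 8 of the 10 genes had a window in the table. GGAAA was found once in the *Nrarp* window, 2 times each in those of *Notch2* and *Maml1*, and 3 times in each of the 2 *Rbpj* windows. TGGGAA was found 2 times in 1 *Rbpj* window and once in the other, and CANNTG 2 times in the *Nrarp* window and 2 times in 1 *Rbpj* window. A match is a description of the letters and not a bound site.

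The genes whose levels over the 6 libraries most resembled those of *Ptcra* on unique reads were *Tifa*, *Nsmaf*, *Ifi27*, *Unc5cl* and *Fkbp5*, with a root mean square difference of centred log2(CPM + 1) values of 0.186 to 0.331. They were chosen from 8428 genes with a mean of at least 10 CPM. All of them peaked in Nc1Bio replicate 2. *Fkbp5*, a well-known glucocorticoid-induced gene, had 612, 1536 and 760 CPM in Nc1Bio, against 744, 596 and 567 CPM in BirA. *Notch3* ranked 10 in likeness to *Ptcra*, at 0.349. The nearest genes to *Notch3* were *Prss57*, *Naxd*, *Bst1*, *Btg3* and *Slc35f2*, at 0.0366 to 0.0916. *Notch1* ranked 45 of the same genes, at 0.145. *Ptcra* ranked only 5515 of the 8428 in likeness to *Notch3*, at the same 0.349. These ranks describe 6 libraries of 2 groups and carry no test.

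Genes around the receptors were then read from lists by role, on unique reads. edgeR called none of them at an adjusted p under 0.05. Counts at an unadjusted p under 0.05 are given for each of these lists by role, beside 4.31% of all genes higher and 7.66% lower. DESeq2 calls stand beside 0.32% of all genes higher and 2.16% lower. Groups without overlap were found in 8.45% of all genes with Nc1Bio higher and in 9.98% with Nc1Bio lower. Of the 5 ligand genes, *Dll1*, *Dll3* and *Dll4* had almost no reads. *Jag1*, a ligand of Notch receptors, had 0.666, 0.455 and 0.617 CPM in Nc1Bio, against 7.0, 3.27 and 1.67 CPM in BirA, with no overlap, a log2 fold change of -2.76 (SE 0.64), an edgeR adjusted p of 0.200 and a DESeq2 adjusted p of 0.00687. It was low in all libraries. *Jag2*, another ligand gene, had 3.58, 6.30 and 2.16 CPM in Nc1Bio and 4.76, 5.31 and 7.02 CPM in BirA, with overlapping groups, and its log2 fold change of -0.50 (SE 0.44) had an edgeR adjusted p of 0.681. At an unadjusted p under 0.05, 0 of these 2 tested ligand genes were higher and 1 lower.

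Genes that process the receptors leaned lower, with 11 of 15 at negative values, a median of -0.13 and an unadjusted p under 0.05 in 3 of the lower and 0 of the higher genes. *Furin*, the convertase that cleaves receptors on their way to the surface, had 51.9, 36.1 and 40.4 CPM in Nc1Bio and 78.5, 80.2 and 51.1 CPM in BirA, and its log2 fold change of -0.71 (SE 0.20) had an edgeR adjusted p of 0.284 and a DESeq2 adjusted p of 0.0260. Nc1Bio replicate 1 lay just above BirA replicate 3, so the groups overlapped. The γ-secretase gene *Psen2* had -0.92 (SE 0.31) and the glycosyltransferase gene *Lfng* -0.73 (SE 0.28), while the protease genes *Adam10* and *Adam17* had -0.13 (SE 0.10) and -0.16 (SE 0.10).

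The nuclear partners and co-repressors lay near 0, with 7 of 16 higher, 9 lower, a median of -0.043 and 0 at an unadjusted p under 0.05, with 0 called by DESeq2. A further list held turnover genes and other modulators of the pathway, with *Notch4* among them. Of its 12 tested genes 4 were higher and 8 lower, with a median of -0.13. An unadjusted p under 0.05 was found in 0 of the higher and 2 of the lower genes. The ubiquitin ligase gene *Neurl3* had 16.4, 10.7 and 12.5 CPM in Nc1Bio, against 47.9, 37.7 and 17.9 CPM in BirA, and its log2 fold change of -1.39 (SE 0.35) had an edgeR adjusted p of 0.234 and a DESeq2 adjusted p of 0.000867. *Numb*, an inhibitor of Notch, had -0.49 (SE 0.16, edgeR adjusted p = 0.331).

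Other reported Notch targets did not lean one way: 5 of 10 were higher and 5 lower, with a median of -0.12 and an unadjusted p under 0.05 in 2 of the higher and 1 of the lower genes. *Myc*, which drives growth, had 324, 267 and 290 CPM in Nc1Bio and 184, 199 and 203 CPM in BirA, well apart, and its log2 fold change of 0.59 (SE 0.10) had an edgeR adjusted p of 0.109 and a DESeq2 adjusted p of 0.000203. *Il2ra*, which encodes CD25 and marks the DN2 and DN3 stages, had 772, 656 and 559 CPM in Nc1Bio and 344, 330 and 624 CPM in BirA, with BirA replicate 3 inside the Nc1Bio range (log2 fold change 0.61, SE 0.25, edgeR adjusted p = 0.403). *Igf1r* ran the other way at -0.60 (SE 0.16, edgeR adjusted p = 0.256) and was called lower by DESeq2 (adjusted p = 0.0224). *Hey1* and *Hey2* had too few reads to be tested.

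**Figure D5:**
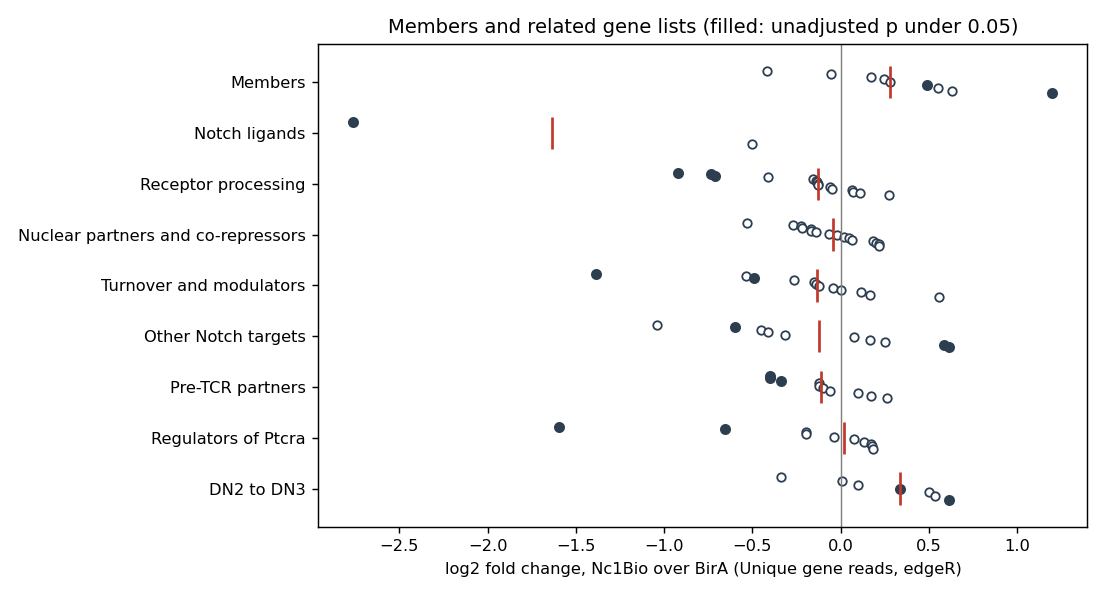
Log2 fold change of Nc1Bio over BirA on unique gene reads (horizontal axis) for the tested genes of the set (top row), of 7 lists of related genes and of the DN2 to DN3 markers (vertical axis). Filled points have an unadjusted edgeR p under 0.05 and red bars are medians. The set's median is 0.28 and the medians of the lists of related genes run from -1.63 in the 2 tested ligands to 0.018 in the regulators of *Ptcra*.

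Among the partners of pre-Tα in the pre-TCR and its signal chain, 3 of 10 were higher and 7 lower, with a median of -0.11 and an unadjusted p under 0.05 in 3 of the lower and 0 of the higher genes. *Cd247*, the CD3ζ chain, had 228, 225 and 255 CPM in Nc1Bio, against 305, 323 and 305 CPM in BirA, and its log2 fold change of -0.40 (SE 0.09) had an edgeR adjusted p of 0.194 and a DESeq2 adjusted p of 0.0207. *Zap70*, a kinase that docks on it, had -0.40 (SE 0.09) with DESeq2 adjusted p = 0.0512, and *Lcp2* had -0.34 (SE 0.14). The kinase gene *Lck* had 0.26 (SE 0.12), *Cd3g* 0.17 (SE 0.12) and *Trbc2*, a TCRβ constant region, -0.062 (SE 0.11). Mature T cells also use these genes, and their 5 markers were all at negative values, 4 of them at an unadjusted p under 0.05. These 5 markers summed to 512 to 595 CPM in Nc1Bio and 805 to 956 CPM in BirA. NK and innate lymphoid cells express *Cd247* and *Zap70* too. All 4 tested markers of these cells were at negative values, 3 of them at an unadjusted p under 0.05. The 6 listed summed to 310 to 481 CPM in Nc1Bio and 648 to 681 CPM in BirA. *Gzma* made most of these sums, at 274, 374 and 468 CPM in Nc1Bio and 554, 637 and 654 CPM in BirA. *Nkg7* lay near 0, at -0.080 (SE 0.38). The part of mature T, NK and innate lymphoid cells, and of the γδ cells given above, in the levels of the pre-TCR partners was not tested.

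Among 10 factors known to act on *Ptcra* or on the E proteins that drive it, 5 were higher and 5 lower, with a median of 0.018 and an unadjusted p under 0.05 in 0 of the higher and 2 of the lower genes. *Tcf3* and *Tcf12*, which encode E2A and HEB, had log2 fold changes of 0.17 (SE 0.14) and 0.18 (SE 0.10). The inhibitors of E proteins, *Id3* and *Id2*, had negative log2 fold changes. *Id3* had 58.1, 43.5 and 72.0 CPM in Nc1Bio, against 90.5, 75.9 and 107 CPM in BirA, with no overlap, and its log2 fold change of -0.66 (SE 0.20) had an edgeR adjusted p of 0.30 and a DESeq2 adjusted p of 0.0333. *Id2* had 26.8, 14.9 and 24.8 CPM in Nc1Bio and 125, 48.1 and 28.1 CPM in BirA, with BirA replicate 1 far above the rest (log2 fold change -1.60, SE 0.51, edgeR adjusted p = 0.322). BirA replicate 1 was also highest in summed B cell markers, at 340 CPM, and in summed dendritic cell markers, at 939 CPM, where the Nc1Bio libraries had 77.8 to 252 CPM and the other BirA libraries 215 to 242 CPM. Most of the 939 CPM came from *H2-Aa*, at 391 CPM, and *H2-Ab1*, at 495 CPM. *Cd209a* was also highest in BirA replicate 1, at 5.41 CPM. *Itgax* was highest in BirA replicate 2, at 48.0 CPM, and *Siglech* in Nc1Bio replicate 1, at 3.50 CPM. The part of B and dendritic cells in the *Id2* level was not tested. Markers of the DN2 to DN3 stages were higher in 6 of 7 cases, with a median of 0.33 and 2 at an unadjusted p under 0.05, *Il2ra*, which also stands among the targets above, and *Dntt*, which adds bases to rearranging receptor genes. All 6 proliferation markers were at positive values, 1 of them at an unadjusted p under 0.05, with sums that did not overlap, at 2047 to 2159 CPM in Nc1Bio and 1523 to 1967 CPM in BirA. Markers of the DN1 stage were at negative values in 8 of 9 cases, with a median of -0.48 and 1 lower at an unadjusted p under 0.05. Their sums were 117 to 149 CPM in Nc1Bio and 129 to 269 CPM in BirA. The part of DN stage and proliferation in the levels of *Ptcra*, *Notch3* and *Myc* was not tested.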

How the data were processed

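Per the labels, cells with CD4 or CD8 were removed on magnetic beads and poly(A) libraries were made from what was left. The methods name cutadapt, STAR and featureCounts, with GRCm38. The sources used here do not name the program that wrote the tables. The deposited values are counts of reads per gene, unique and total, over genes, exons, introns and junctions. RPKM and TPM columns were not used. Reads are not molecules.

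Unique gene reads were fitted in edgeR 4.0.16 (R 4.3.3) by the quasi-likelihood test with filterByExpr (minimum count 10), TMM scaling and genotype as the single term, adjusted by Benjamini-Hochberg over all genes and called at 0.05, and total gene reads were fitted in the same way. The SE is the size of the log2 fold change divided by the square root of F. DESeq2 1.42.0 and limma-voom (limma 3.58.1), other scalings and filters, exon reads, the study's threshold, the replicate block and leaving out libraries were alternatives. The exact permutation test was two-sided. Steps were tested on simulated data. All pairs of libraries within a group differed by far more than counting error (chi-square over its degrees of freedom, 27.7 or more).

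All members are named, with *Nfatc1*, genes that overlap a member, and up to 4 genes of lowest p in each list. *Adam10*, *Adam17*, *Cd3g*, *Lck*, *Trbc2*, *Tcf3*, *Tcf12*, *Notch4*, *Hey1*, *Hey2*, *Dntt*, *Rag1*, *Cd4*, *Cd8a*, *Cd8b1* and *Arpp21* are given in addition as core genes of their lists, chosen after their values were seen. The likeness measure used log2(CPM + 1) on unique reads, without predicted gene models. The members and lists were chosen with earlier results of these data known. Promoters are from RefSeq (GRCm38.p6), in which *Hes1* and *Heyl* were not found. RefSeq starts can differ from those in the tables.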

Additional observations from a re-analysis of the deposited data

How the results depend on the processing

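edgeR called 0 of the set under every alternative run in edgeR and limma-voom, with either count column, and DESeq2 called 2 on unique reads, 1 on total reads and 1 at the study's threshold. Over all genes edgeR called 1 higher and 0 lower. Without a low-count filter it called 11 higher and 145 lower, DESeq2 called 42 higher and 284 lower, DESeq2 on total reads 46 higher and 304 lower, and the study's threshold in DESeq2 gave 16 higher and 167 lower. Leaving out 1 library gave 0 to 1 genes higher and 0 to 1 lower, and leaving out BirA replicate 1 with Nc1Bio replicate 3 gave 2 lower. With the replicate block edgeR called 1 gene higher, 1 lower and 0 of the set, at log2 fold changes of 1.12 for *Ptcra* and 0.48 for *Notch3*. Same-numbered libraries deviated from their group means with correlations of 0.33, 0.12 and -0.099. Differently numbered libraries had correlations between -0.39 and 0.25. With 3 libraries in each group these values cannot settle whether the numbers pair the libraries.

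*Hes1* turned to -0.15 without Nc1Bio replicate 2 (-0.15 in DESeq2 and -0.16 on total reads), and with 1 library left out reached at most 0.51 in either column, without BirA replicate 3. *Maml1* on unique reads turned to 0.55 with BirA replicate 1 and Nc1Bio replicate 3 left out, and with single libraries left out ranged between -0.57 and 0.35. The values that turned were 0.15 without Nc1Bio replicate 1, 0.15 without Nc1Bio replicate 3 and 0.35 without BirA replicate 1 in edgeR, and 0.15, 0.14 and 0.35 in DESeq2. The cause was not tested. The other members kept their direction under all alternatives run. With 1 library left out, *Ptcra* ranged from 0.79 to 1.39 on unique and 0.85 to 1.28 on total reads, *Notch3* from 0.34 to 0.59 on unique reads, *Notch1* from 0.18 to 0.36, *Notch2* from -0.66 to -0.26, *Dtx1* from 0.26 to 0.93, *Heyl* from 0.29 to 1.52, and the difference in the share of *Notch3* from 2.95 to 4.69 percentage points. edgeR's adjusted p for *Ptcra* with 1 library left out lay between 0.203 and 0.550 on unique reads. Total exon reads, DESeq2 without single libraries, and total gene reads without single libraries or with the replicate block were chosen after seeing the data.

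*Heyl*, *Maml1* and *Nrarp* rest on few unique reads, and which differences these would show was not tested. Reads from overlapping genes cannot be told apart without strand.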
